A study of Mus musculus with 192 samples.

Results

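The 5 genes described here, Cd34, Ly6a, Thy1, Mcam and Prom1, encode surface proteins by which stromal and vascular progenitor cells are commonly sorted, and they were taken by name from a panel of 96 assays for 95 genes. All 5 were detected, meaning that at least 1 cell gave a cycle threshold (Ct) below 40, the value that stands for no signal in the deposited table. The Ct counts the cycles a PCR reaction needs to reach its threshold, so an early, low Ct means a high level, and a step of 1 cycle stands for about a doubling. Single cells came from dorsal wounds of mice joined by parabiosis, which shares the circulation, to donors that carry green fluorescent protein (GFP). The recipients were wild type (WT) or lacked Cxcl12, a chemokine that attracts progenitor cells, in their endothelium (EKO). Cells were sorted as lineage-negative and GFP-positive, so the genotype is that of the recipient and the donor is the source of the sorted cell. The sources used here do not give the driver of the endothelial deletion, the age and number of the animals, the day after wounding or the antigens of the lineage gate. The cells were run as sets A and B, each with WT cells in positions 1 to 48 and EKO cells in positions 49 to 96. Genotype and position therefore cannot be told apart. No animal is named, so each genotype counts as 1 sample, and no difference was tested.

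Cd34 is a sialomucin found on blood progenitors, on capillary endothelium and on a large part of skin fibroblasts. Ly6a encodes Sca-1, an anchored protein of mouse blood stem cells that interferon raises and that fibroblasts and endothelium also carry. Thy1 encodes CD90, found on fibroblasts, on T cells and on some blood progenitors. Mcam encodes CD146, an adhesion molecule of endothelium and of pericytes, the cells that wrap small vessels. Prom1 encodes CD133, a membrane protein of several stem and epithelial cell types. No one of the 5 marks a single lineage, which is why the combinations in each cell are described below together with the levels.

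Upstream sequence was matched by symbol for Cd34, Mcam and Prom1 in a RefSeq promoter table of the GRCm38.p6 build. The 250 bases before the start of Cd34, the marker whose level differed most between genotypes in collagen-high cells, and of Mcam, the marker most tied to Cdh5, are shown 5′ to 3′ because their base composition differs widely. Capitals mark GGGCGG, the GC box, on either strand.
Cd34: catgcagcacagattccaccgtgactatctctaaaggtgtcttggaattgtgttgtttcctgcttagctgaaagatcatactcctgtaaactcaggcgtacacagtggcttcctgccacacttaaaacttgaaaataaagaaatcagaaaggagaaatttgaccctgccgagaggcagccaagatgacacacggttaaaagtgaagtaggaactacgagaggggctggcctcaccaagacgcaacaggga
Mcam: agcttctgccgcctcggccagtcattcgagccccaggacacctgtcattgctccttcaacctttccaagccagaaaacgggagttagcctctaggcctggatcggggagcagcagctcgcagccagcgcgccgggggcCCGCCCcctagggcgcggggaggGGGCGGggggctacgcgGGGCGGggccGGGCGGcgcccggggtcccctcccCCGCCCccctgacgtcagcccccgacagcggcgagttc
The Cd34 stretch lies at chr1:194938571-194938820 on the plus strand and the Mcam stretch at chr9:44134408-44134657 on the plus strand. The Cd34 stretch has a GC content of 46.4% with 6 CG dinucleotides and 0 GC boxes. The Mcam stretch has 73.6% with 25 CG dinucleotides and 5 GC boxes. Over the 32851 stretches of the same length in the table the median GC content was 52.4%, and 32.7% held at least 1 GC box. The TATA box TATAAA, the ETS-type letters CCGGAA and the GATA-type letters AGATAA were also read on both strands and were found in neither stretch. They were in 12.4%, 12.03% and 9.99% of all stretches, in this order. The shorter letters GGAA within CCGGAA were not counted. These are counts of letters in a window, and the panel holds no measure of binding or methylation there.

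Of the 192 cells, 170 detected at least 10 assays and were kept, 93 from WT and 77 from EKO recipients. The filter removed 3 WT and 19 EKO cells. Among these 22 cells Cd34 was detected in 1, Ly6a in 1 and the other members in 0. The median kept cell detected 21 assays in WT and 34 in EKO. Because this yield differs with genotype and because a shallow cell misses more genes, the main differences in share are also given for the 95 deeper cells, those with at least 24 assays. Shares carry exact Clopper-Pearson 95% intervals, which cover counting error only, and Ct values carry the SD over detecting cells. 3 groups of cells were used. Collagen-high cells have a Col1a1 Ct below 16 (46 cells). Ptprc-detecting cells show the pan-leukocyte gene Ptprc without high collagen (71 cells). Cdh5-detecting cells show the endothelial cadherin gene Cdh5 (13 cells, which can also belong to either of the other groups). The remaining 48 cells lay outside the 3 groups, and 15 of them detected Col1a1 later than the limit. The Col1a1 limit falls in a gap, with the last cell inside at 14.25 and the first outside at 17.04.

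Across the 170 kept cells Ly6a was detected most often and Prom1 least. Ly6a was found in 147 cells (86.5%, 80.4 to 91.2%), Thy1 in 75 (44.1%, 36.5 to 51.9%) and Cd34 in 55 (32.4%, 25.4 to 39.9%). Mcam was found in 14 (8.24%, 4.58 to 13.4%) and Prom1 in 4 (2.35%, 0.645 to 5.91%). The intervals of neighbours in this order did not overlap for Ly6a and Thy1 or for Cd34 and Mcam. They overlapped for the pairs of Thy1 with Cd34 and of Mcam with Prom1. The shares come from the same 170 cells, so overlap of these separate intervals does not compare the genes. The label of stromal and vascular markers was met in part by the data. Cd34 and Thy1 were detected more often with high collagen and Mcam more often with Cdh5. Thy1 was also found in 27 of 71 Ptprc-detecting cells, and 7 of the 14 Mcam cells had no Cdh5. Ly6a was found across all groups of cells, including 40 of the 48 cells outside them.

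**Figure D1:**
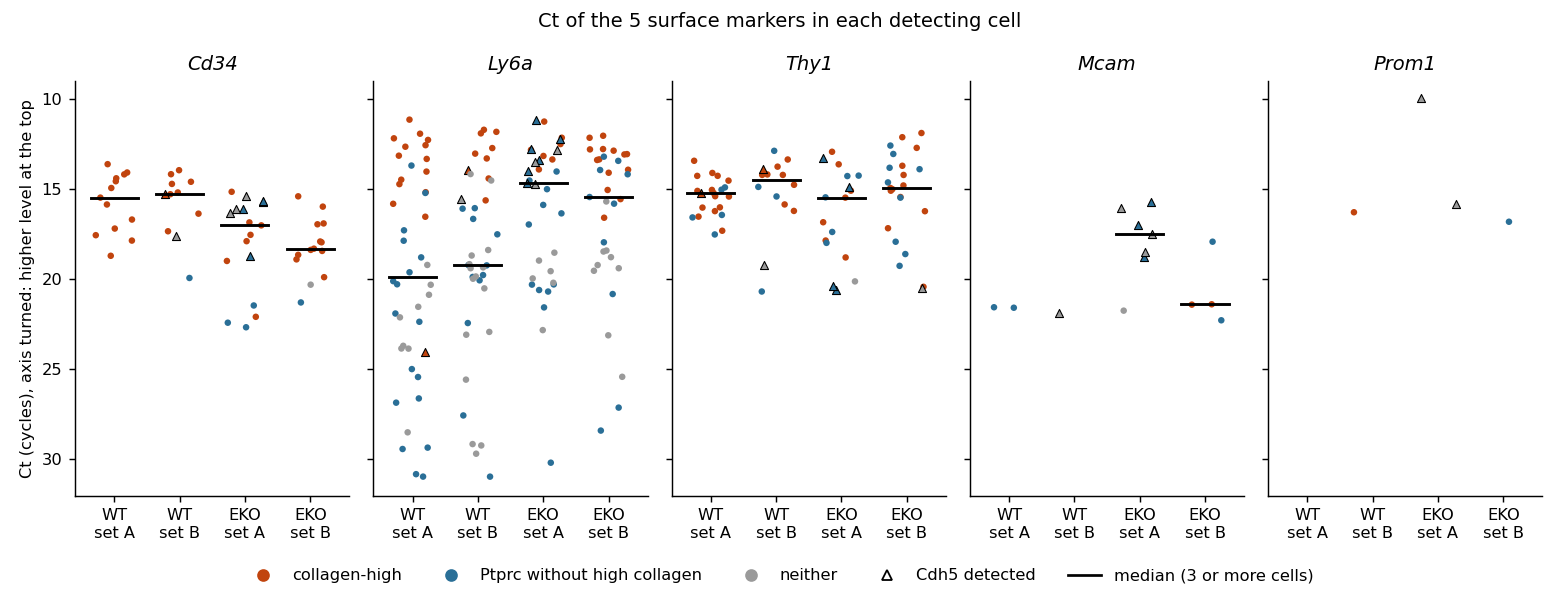
Ct of each marker in every detecting cell (vertical axis in cycles, turned so that higher levels are at the top), by recipient genotype and set, coloured by group of cells, with Cdh5-detecting cells as triangles and bars at the median where 3 or more cells detected the gene. Ly6a spreads from 11.1 to 30.95 cycles, the Cd34 medians of EKO cells sit below those of WT cells, and the 4 earliest Mcam values belong to EKO cells of set A that detect Cdh5.

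Cd34 was found mostly in collagen-high cells. It was detected in 41 of 46 collagen-high cells (89.1%, 76.4 to 96.4%) and in 9 of 71 Ptprc-detecting cells (12.7%, 5.96 to 22.7%). The difference was 76.5 percentage points (set A 70.3, set B 84.4). Of the 55 cells with Cd34, 41 were collagen-high, 9 were in the Ptprc group and 5 in neither. Its Ct ran from 13.6 over a median of 16.8 to 22.1 in collagen-high cells, against 15.7, 19.9 and 22.7 in the 9 Ptprc-detecting cells, so the ranges overlapped. Among the 48 cells outside the 3 groups Cd34 was found in 1, at a Ct of 20.3.

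Thy1, the other marker of the collagen-high cells, was found in 45 of them (97.8%, 88.5 to 99.9%) at a median Ct of 15.04 ± 1.65. Unlike Cd34 it was also found in a large minority of the Ptprc group, 27 of 71 cells (38.03%, 26.8 to 50.3%), and there at a similar level, 15.4 ± 2.42. The difference in Ct was -0.36 cycles (set A -0.72, set B -0.39). The difference in share was 59.8 points (set A 66.7, set B 50.8). The gap in Thy1 level was thus well under its SD over cells, and the intervals of its shares did not overlap.

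Ly6a differed between the groups chiefly in level. It was found in 45 collagen-high cells (97.8%) and 58 Ptprc-detecting cells (81.7%, 70.7 to 89.9%), a difference of 16.1 points. Its Ct ran from 11.1 over a median of 13.1 to 24.02 in the former and from 11.2 over 19.2 to 30.95 in the latter. The medians differed by -6.08 cycles (set A -6.71, set B -5.51), and the ranges overlapped, since the earliest Ptprc-detecting cells were as early as the collagen-high ones. By a rule of at least 1 cycle overall and 1 sign over the sets 51% of 49 assays were earlier in collagen-high cells, Ly6a among them, and 6.12% were later. In the 40 Ly6a cells outside the 3 groups the median Ct was 19.96. The Ly6a assay carries the suffix s1, the maker's mark for primers within 1 exon, as do 6 of the 96 assays, this one included. The other 4 markers have m1 assays, which span an exon junction. For the remaining s1 assays, kept EKO cells gave shares of 97.4% (Actb), 94.8% (Nanog), 83.1% (Sox2), 72.7% (Ang) and 18.2% (Nog). Kept WT cells gave 94.6%, 91.4%, 79.6%, 67.7% and 29.03%, in this order. Whether genomic DNA added to the Ly6a signal was not tested, so its shares are shares of cells with a signal.

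The size rule asked for 30 points or more and 1 sign over the sets. By it Cd34 and Thy1 were higher in collagen-high than in Ptprc-detecting cells, and 0 members were lower. Of the 96 assays, 39.6% met this rule upwards and 1.04% downwards, so 2 of 5 members is close to the share of the panel as a whole. Collagen-high cells detected a median of 52 assays and Ptprc-detecting cells 28. With at least 24 assays the differences were 72.5 points for Cd34, 33.5 for Thy1 and 14.5 for Ly6a, and the rule was met by 31.2% of assays upwards and 5.21% downwards. Over the 96 assays the median difference was 15.4 points, and 6.73 in the deeper cells. Ptprc was also read in 31 of the 46 collagen-high cells. Whether some reactions held 2 cells was not tested. Against all 102 Ptprc-detecting cells the Cd34 difference was 52.9 points.

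**Figure D2:**
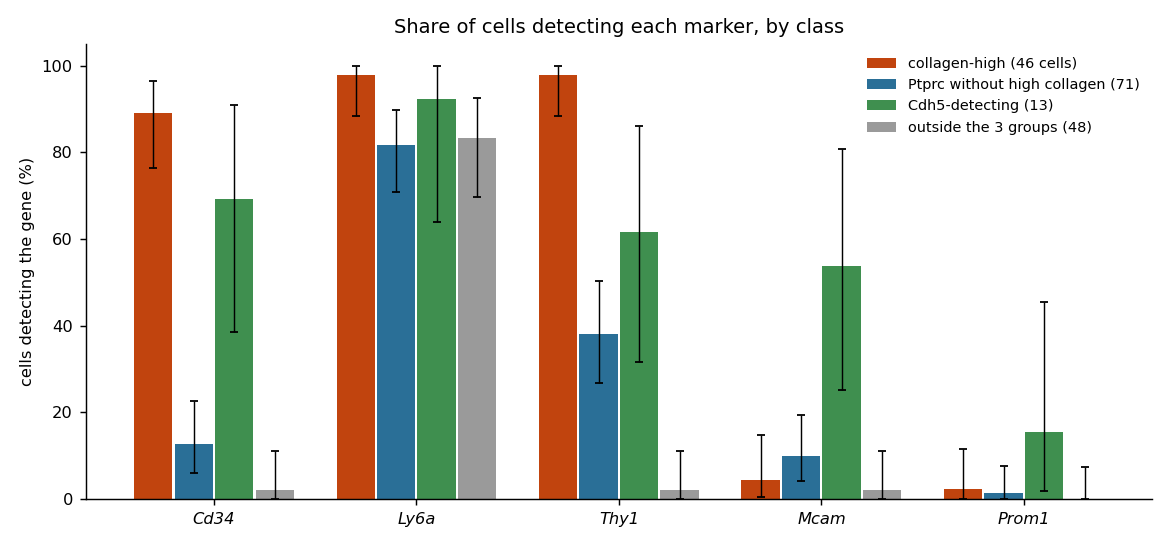
Share of cells in which each marker was detected (vertical axis, percent) in the 46 collagen-high, 71 Ptprc-detecting, 13 Cdh5-detecting and 48 remaining cells; lines are exact 95% intervals. Cd34 reaches 89.1% in collagen-high and 12.7% in Ptprc-detecting cells, Mcam reaches 53.8% in Cdh5-detecting cells, and Ly6a lies above 80% in each group.

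Of the 32 possible combinations of the 5 markers 14 occurred, and the number expected from the single shares was not computed. The largest were Ly6a alone (61 cells), Cd34 with Ly6a and Thy1 (38), Ly6a with Thy1 (27) and none of the 5 (19). All 38 cells with Cd34, Ly6a and Thy1 and no further marker were collagen-high. Counting cells that also had Mcam or Prom1, the triple combination was seen in 44 cells, 22 from each genotype, of which 40 were collagen-high (86.96% of that group, 73.7 to 95.1%). The collagen-high group was defined by Col1a1 and not by these markers. Ly6a with Thy1 alone belonged to the Ptprc group in 22 of 27 cells. Of the 55 cells with Cd34, 53 (96.4%, 87.5 to 99.6%) also had Ly6a and 45 (81.8%, 69.1 to 90.9%) also had Thy1. In the other direction 53 of the 147 Ly6a cells (36.1%) and 45 of the 75 Thy1 cells had Cd34. No cell had all 5.

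**Figure D3:**
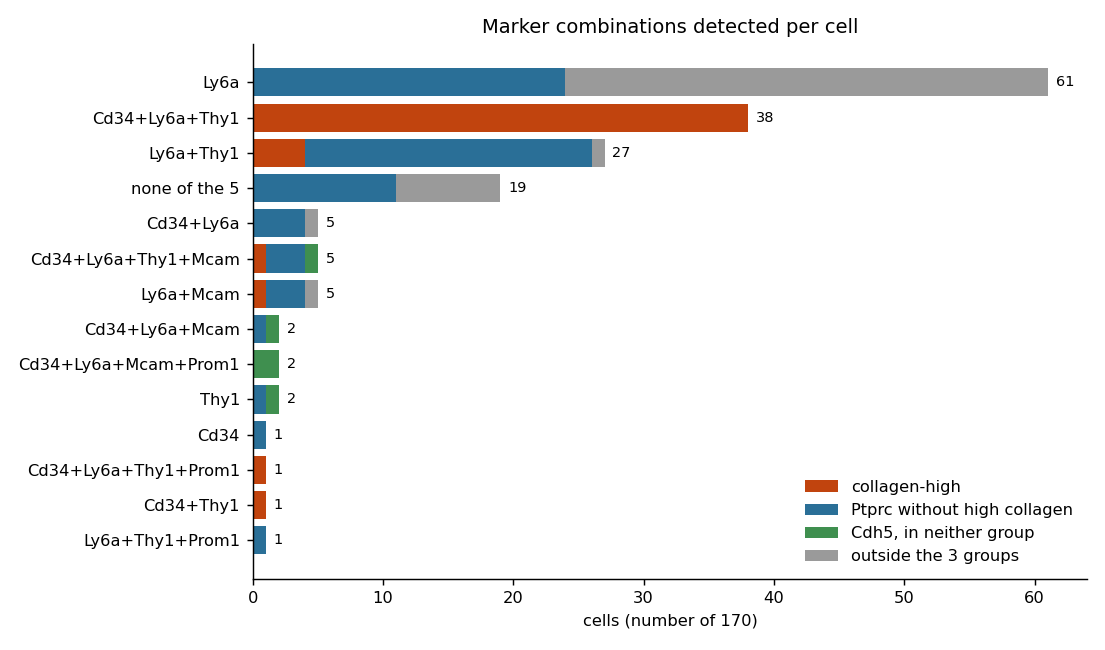
Number of kept cells (horizontal axis) with each combination of the 5 markers, coloured by group of cells. The bar for Cd34, Ly6a and Thy1 holds collagen-high cells only, the bar for Ly6a and Thy1 is mostly Ptprc-detecting, and 4 of the 5 Cdh5-detecting cells that belong to neither other group lie in bars with Mcam.

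The Ptprc-detecting cells with Thy1 were set against the marker lists. Of the 27, 24 had no Cd34. The platelet-derived growth factor receptor gene Pdgfra was detected in 1 of these 24 (4.17%) against 46 of 46 collagen-high cells. The collagen genes were read more often, Col1a1 in 14 of the 24 (58.3%), Col3a1 in 13 and Col1a2 in 9. Their median Ct values were 19.8, 20.2 and 20.8 against 9.83, 9.32 and 10.9 in collagen-high cells. The groups were cut on the Ct of Col1a1, so its later value here was fixed by that rule. In the 24 cells the 8 measured haematopoietic markers were detected at between 3 and 5 a cell, with a median of 4. Ptprc, by which the cells were chosen, is among the 8. Collagen-high cells, which were not chosen by Ptprc, had between 1 and 5 of the 8, with a median of 3. The 8 endothelial markers gave between 0 and 2 in the 24 cells, with Tek, Tie1 and Etv2 at 0. The 6 fibroblast or mesenchymal markers gave between 0 and 3, with a median of 2, and between 0 and 4 with a median of 1 in the 44 Ptprc-detecting cells without Thy1. The panel reads 0 of the 3 listed T cell genes, so whether some were T cells was not tested. These cells came from both genotypes and both sets, with 5 WT and 7 EKO cells in set A and 4 and 8 in set B.

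Within the Ptprc group, cells with and without Thy1 differed in some genes of blood cells and of division and not in others. The adhesion protein gene Cd48 was detected in 96.3% of the 27 cells with Thy1 and 36.4% of the 44 without. The blood transcription factor Runx1 was detected in 81.5% of the former and 11 of the 44 latter, and the chemokine receptor gene Ccr2 in 59.3% and 11.4%. Mki67, a marker of dividing cells, was detected in 62.96% (42.4 to 80.6%) and 6.82% (1.43 to 18.7%). Birc5, which acts in chromosome segregation and in survival, was detected in 62.96% and 4.55% (0.555 to 15.5%). Other genes of these kinds did not follow. The macrophage gene Adgre1 was detected in 7.41% of the cells with Thy1 and 11 of the 44 without, and the myeloid integrin gene Itgam in 7.41% and 18.2%. The replication gene Pcna stood at 96.3% and 93.2% and the cyclin gene Ccnd1 at 18.5% and 13.6%. The division genes were named after their values were seen. By the rule of at least 30 points and 1 sign over the sets 20.8% of the assays, Thy1 itself included, were higher with Thy1 and 0.0% lower. The cells with Thy1 detected a median of 37 assays and those without 20.5. Some of the blood cell genes were not confined to the Ptprc group. In collagen-high cells Runx1 was detected in 97.8%, Cd48 in 47.8% and Ccr2 in 43.5%, against 2.17% for Itgam and 0.0% for Adgre1.

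When the Ptprc group was held to cells with at least 24 assays, all 27 with Thy1 and 15 without remained. Their medians were 37 and 30 assays, so the filter did not make the yield equal. The Mki67 difference was then 42.96 points (49.2 in set A, 37.2 in set B) and that of Birc5 49.6 (60.3 and 37.2). The rule of 30 points was then met by 7.29% of the assays upwards and 1.04% downwards. Upwards these were Thy1 itself, Mki67, Birc5, Itgb3, an integrin beta chain gene, at 46.7 points (30.95 and 69.2), Ly6a at 36.3 (33.3 and 42.3), Col1a1 at 32.6 (50 and 2.56) and the receptor gene Notch1 at 30.4 (34.1 and 28.2). The 1 downwards was the growth factor receptor gene Fgfr1 at -48.1 points (-34.1 and -67.9). Ccnd1 stood at -14.8 points. Cd48 was then detected in 86.7% of the cells without Thy1, against 36.4% before, and Runx1 in 9 of the 15. In collagen-high cells Mki67 was found in 4 of 46 (8.70%), although 45 of the 46 had Thy1.

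Mcam was rare and was found in 14 cells, of which 7 also detected Cdh5. It was present in 7 of 13 Cdh5-detecting cells (53.8%, 25.1 to 80.8%) and in 7 of 157 others (4.46%, 1.81 to 8.97%). The difference was 49.4 points (set A 56.1, set B 28.3). Cd34 was present in 9 of the 13 (69.2%, 38.6 to 90.9%) against 29.3% of the others, a difference of 39.9 points. By the 30-point rule Mcam and Cd34 were both higher, a rule met by 31.2% of the 96 assays, Cdh5 itself included, with 0.0% lower. Cdh5-detecting cells had a median of 52 assays against 26. In cells with 24 assays or more the Mcam difference was 51.1 points, while that of Cd34 was 21.99 points (16.2 in set A, 47.7 in set B) and no longer met the rule, which 19.8% of the assays met upwards and 2.08% downwards. The Thy1 difference turned from 18.9 to -21.2 points at that filter.

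The Cdh5-detecting cells were described in 2 parts, with and without Pecam1. The 9 that also detected the endothelial adhesion gene Pecam1 all had Cd34 and Ly6a, and 7 of them had Mcam. In these 9 the 8 measured endothelial markers were detected at between 2 and 7 a cell, with a median of 7 and Etv2 at 0. Cdh5 and Pecam1, by which the 9 were chosen, are among the 8, so 2 was the lowest count possible. Of the 9, 7 were EKO cells of set A and 2 were WT cells of set B. The 4 without Pecam1 had neither Cd34 nor Mcam, and all 4 had Thy1. In the 9 cells Cd34 had a median Ct of 16.1, close to the 16.8 of the collagen-high cells. Thy1 was present in 4 of the 9, at 13.9, 19.2, 20.4 and 20.6. The early value belongs to a WT cell of set B that is also collagen-high, and the other values lie several cycles after the collagen-high median of 15.04.

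The 4 earliest Mcam values lay in these same cells. The 6 EKO cells with Cdh5 and Mcam, all of set A, had Mcam between 15.7 and 18.8, and the WT cell with both (set B, position 17) had 21.9. The 7 Mcam cells without Cdh5 were at 17.9 or later, 6 of them between 21.4 and 22.3. The pericyte genes Pdgfrb, Cspg4 and Acta2 were found in 2, 1 and 4 of the 14 Mcam cells. The 14 cells all had Ly6a, 9 had Cd34 and 8 had Ptprc. Mcam was found in 2 of 46 collagen-high cells (4.35%), at 21.4 in both.

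Prom1 was found in 4 cells only. 2 were EKO cells of set A with Cdh5, Cd34, Ly6a and Mcam, at positions 64 and 72, with Ct values of 9.97 and 15.8. The third was a collagen-high WT cell (set B, position 21, Ct 16.3) and the fourth a Ptprc-detecting EKO cell (set B, position 57, Ct 16.8). None was late, but 4 cells carry no comparison. In WT cells of set A it was found in 0 of 48, which allows a share of up to 6.25%.

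Detection of the markers followed the yield of a cell unequally. In cells with 10 to 15, 16 to 23, 24 to 39 and 40 or more assays, Cd34 was found in 0 of 30, 2 of 45, 2 of 36 and 51 of 59. Thy1 was found in 1, 1, 23 and 50 of the same cells, so it appeared at a lower yield than Cd34. Ly6a was found in 22, 38, 29 and 58, with median Ct values of 19.9, 21.5, 16.3 and 13.4. Collagen-high cells had between 36 and 61 assays, so these ranges of yield also differ in their groups of cells. The member count adds to the yield of a cell itself, and the part of yield in the differences between groups was not tested.

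The most similar detection patterns over the 170 kept cells were sought among assays found in 10 to 90% of cells, by the phi coefficient. Cd34 was most like Timp1 (0.82), an inhibitor of metalloproteinases, Ackr3 (0.81), a scavenging receptor of Cxcl12, and Itga5 (0.69), the fibronectin receptor subunit. Thy1 was most like Runx1 (0.70), Pik3r1 (0.66) and Itgb3 (0.65). Mcam was most like Tek (0.32), the angiopoietin receptor, Pdgfb (0.32) and Jag1 (0.31), a Notch ligand. Ly6a, found in most cells, had low values led by Timp2 (0.29), Itgb3 (0.27) and Myc (0.27), and Prom1 had Kit (0.32), Jag1 (0.26) and Pecam1 (0.24). With at least 24 assays (95 cells) Timp1 and Ackr3 still led for Cd34 (0.77 and 0.76) and Tek and Pdgfb for Mcam (0.28 each), while Timp2, Col1a1 and Tgfb3 led for Thy1. All pairs share the cells and their yield, so these values are descriptions.

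Between genotypes, Cd34 was detected in 24 of 93 WT cells (25.8%, 17.3 to 35.9%) and 31 of 77 EKO cells (40.3%, 29.2 to 52.1%). For Mcam the numbers were 3 of the WT cells (3.23%, 0.670 to 9.14%) and 11 of the EKO cells (14.3%, 7.35 to 24.1%). The differences, EKO minus WT, were 14.5 points for Cd34 (16.5 in set A, 12.4 in set B) and 11.1 for Mcam (13.8 and 8.30). The intervals overlapped for both genes. By a rule of 10 points or more and 1 sign over the sets, Cd34 and Mcam were higher in EKO and 0 members were lower, against 20.8% of the 96 assays higher and 0.0% lower. Over all assays the median difference was 5.70 points. Thy1 differed by 14.3 points, but by -0.16 in set A and 29.4 in set B. Ly6a differed by 0.99 and Prom1 by 2.82 points.

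The stricter filter of 24 assays changed several of these values. The Cd34 difference was -2.43 points (5.83 in set A, -11.1 in set B) and that of Thy1 -11.6. Mcam stayed at 11.7 points (set A 15.7, set B 8.73). Ly6a reached 97.6% (87.4 to 99.9%) in WT and 86.8% (74.7 to 94.5%) in EKO, a difference of -10.8 points. Mcam then met the rule upwards with 4.17% of the assays and Ly6a downwards with 11.5%. Of the 11 EKO cells with Mcam, 6 detected Cdh5. Without Cdh5-detecting cells, an alternative chosen after seeing the data, the Mcam difference was 5.24 points and that of Cd34 11.4.

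**Figure D4:**
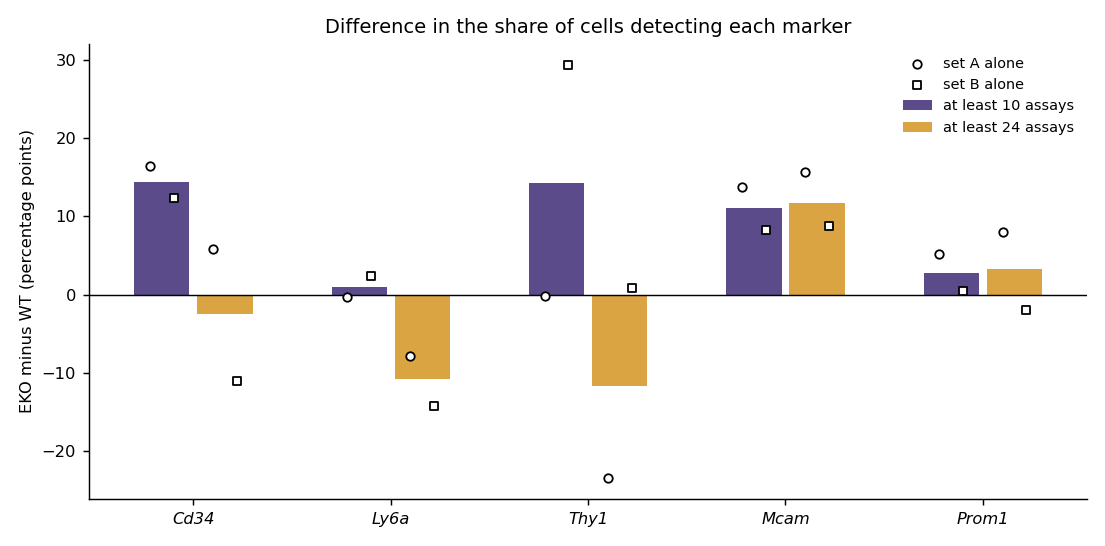
EKO minus WT difference in the share of cells detecting each marker (vertical axis, percentage points) for cells with at least 10 and at least 24 assays; bars are both sets together, circles set A and squares set B. The Cd34 bar goes from 14.5 to -2.43 points with the stricter filter and the Mcam bar stays near 11 points.

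Of the 20 measured genes in a list of other surface proteins, 6 met the 10-point rule upwards and 0 downwards. Over the 96 assays 20.8% and 0.0% did so. The median difference of the 20 was 5.83 points, against 5.70 over all assays. In the deeper cells 1 of the 20 met the rule upwards and 3 downwards, against 4.17% and 11.5% of the assays. The median of the 20 was then -0.65, against -0.07 over all assays. Icam1, the leukocyte adhesion molecule, had 23.2 and 10.7 points at the 2 filters, and Cd47, the inhibitor of phagocytosis, 18.96 and 2.38. The median of the list thus lay lower with the stricter filter, as did that of the whole panel and the Cd34 and Thy1 differences. The Mcam difference did not. In the comparison of groups of cells 9 of the 20 met the 30-point rule higher in collagen-high cells, against 39.6% of the assays. The 9 included Pdgfra (97.2 points), Itga5 (72.4) and Vcam1 (65.7). The 1 lower was Ptprc, which defines the other group.

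Within the Ptprc group the share of cells with Thy1 was 25.7% in WT (9 of 35, 12.5 to 43.3%) and stood at 18 of 36 in EKO (32.9 to 67.1%), a difference of 15.9 points on set A and 37.6 on set B. Cd34 was found there in 1 WT cell (2.86%) and 8 EKO cells (22.2%), 7 of the 8 in set A. Endothelial markers moved with it. Of the 8 measured, the WT cells had between 0 and 2 with Cdh5, Tek, Tie1, Nos3 and Etv2 at 0, and the EKO cells between 0 and 7 with Etv2 at 0. Cdh5 and Nos3 were each in 16.7% of the EKO cells and Tek and Tie1 each in 11.1%. In set A the differences of Cdh5, Tek and Tie1 were 27.3, 18.2 and 18.2 points. In set B those of Cdh5, Tek, Tie1, Kdr and Flt1 were 0.0, with 7.14 for Nos3 and 15.7 for Pecam1. Cd34 was found in 4 of the 6 EKO cells with Cdh5 and in 4 of the 30 without, and the part of endothelial markers in its difference was not tested further. Thy1 and Cd34 both met the 10-point rule, as did 35.4% of the assays, with 2.08% downwards. For Cd34 the sign in set B rests on 1 detecting cell of each genotype. The median Ptprc-detecting cell had 21 assays in WT and 30.5 in EKO. With at least 24 assays Thy1 was found in 9 of 14 WT and 18 of 28 EKO cells, which is 64.3% in each, and Cd34 in 1 (7.14%) and 6 (21.4%). In collagen-high cells, where the medians were 51 and 53 assays, Cd34 was found in 22 of 25 WT cells and 19 of 21 EKO cells, and Thy1 in 25 and 20. No member met the rule there, against 12.5% of assays upwards and 8.33% downwards.

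In collagen-high cells, where its share met no size rule between genotypes, the level of Cd34 was lower in EKO. In collagen-high WT cells its Ct ran from 13.6 over a median of 15.2 to 18.7 (22 cells, SD 1.45). In collagen-high EKO cells it ran from 15.1 over 17.9 to 22.1 (19 cells, SD 1.604). The groups overlapped: 4 of the 19 EKO cells were later than every WT cell, and 18 were later than the WT median, while 1 of 22 WT cells was later than the EKO median. The difference was 2.67 cycles (set A 2.07, set B 2.94), and exceeded the SD over cells in both genotypes. Over all kept cells it was 2.62 cycles. Of the 57 assays read in 3 or more cells of each genotype on each set, 12.3% were later in EKO by at least 1 cycle, with 1 sign over the sets, and 29.8% earlier. Cd34 ranked 2 among the 57, after Angpt1, and the median over the 57 was -0.58 cycles.

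Thy1 and Ly6a had close medians in the same collagen-high cells. Thy1 had a median Ct of 15.04 in both genotypes (EKO minus WT: 0.26 on A, 0.72 on B), with SDs of 1.04 in WT and 2.21 in EKO. Ly6a had 13.2 in WT and 13.1 in EKO, with -0.50 and 0.18 cycles in the sets. Of the reference genes, B2m was later in EKO by 1.02 cycles (0.81 and 1.70), and the difference of Actb was -0.84 cycles. Taken against the mean of both, an alternative chosen after seeing the data, the Cd34 difference in collagen-high cells was 2.38 cycles. The part of B2m and of the position in the set was not tested.

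Cd34 and Ly6a moved together from cell to cell in WT collagen-high cells. Over the 21 with both, the rank correlation of their Ct values was 0.92, with 0.90 in set A (12 cells) and 0.93 in set B (9 cells). It ranked 1 among the 60 assays that shared at least 7 cells with Cd34, whose median correlation was 0.34. Without the 2 cells farthest from the median of Cd34 it was 0.91. In the 19 EKO collagen-high cells it was 0.13, with 0.32 in set A (7 cells) and -0.01 in set B (12 cells), and -0.10 without the 2 farthest cells. Ly6a ranked 15 there among 61 assays, whose median correlation with Cd34 was -0.08, so the correlations of Cd34 were lower in EKO over the assays as a whole and a drop particular to Ly6a was not shown. The points are cells that share their set, their yield and their unknown animals, so this describes these cells. Cd34 and Thy1 showed 0.15 in WT (22 cells), and Cd34 and B2m 0.68.

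The gap between both genes within a cell was wider in EKO. Cd34 minus Ly6a ran from 1.35 over a median of 2.46 to 4.22 cycles in WT and from 2.05 over 4.21 to 8.73 in EKO. Of the 19 EKO cells 9 lay above the widest WT cell, and 17 lay above the WT median. The medians differed by 1.75 cycles, and by 2.05 in each set. Of 56 genes set against Ly6a in this way 12.5% were later in EKO by at least 1 cycle with 1 sign over the sets, and Cd34 ranked 3.

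**Figure D5:**
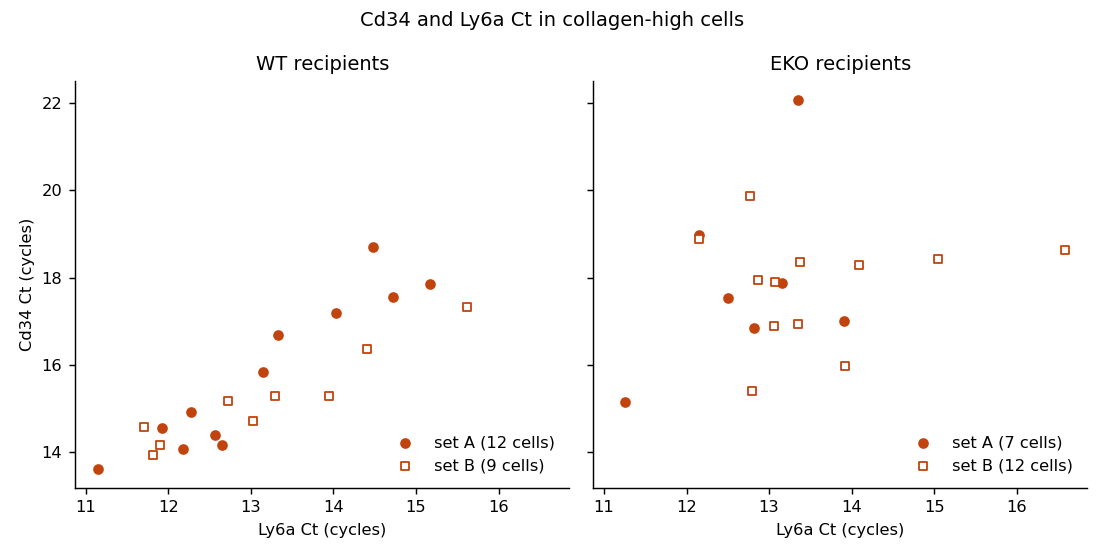
Cd34 Ct (vertical axis, cycles) against Ly6a Ct (horizontal axis, cycles) in collagen-high cells with both genes, WT on the left and EKO on the right, filled circles for set A and open squares for set B. The 21 WT cells lie along a line (rank correlation 0.92) and the 19 EKO cells lie higher and scattered (0.13); cells with a later Cd34 express less.

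Ly6a differed in level outside the collagen-high cells. Over all kept cells its Ct ran from 11.1 over a median of 19.2 to 30.95 in WT (80 cells) and from 11.2 over 15.001 to 30.2 in EKO (67 cells). The difference was -4.22 cycles (set A -5.19, set B -3.75), and was smaller than the SDs of 5.55 and 4.25. Values below 18, from 18 to 24 and at 24 or later were held by 34, 30 and 16 WT cells and by 44, 19 and 4 EKO cells. By the 1-cycle rule Cd34 was later in EKO with 8.82% of the 68 assays with at least 10 detecting cells per genotype, and Ly6a earlier with 33.8%. In Ptprc-detecting cells the Ly6a medians were 20.1 in WT and 15.6 in EKO. These medians cover only cells with Ly6a, 30 from WT and 28 from EKO. Its detection was less frequent in EKO, at 77.8% against 85.7%, with gaps of -8.18 (set A) and -8.57 points (set B). The EKO minus WT differences of Actb and B2m there were -1.86 and -3.08 cycles, and 40.5% of 42 assays met the rule downwards and 2.38% upwards. Over all 95 deeper cells, 46 of them collagen-high, the Ly6a difference was -0.83 cycles. In the Ptprc-detecting cells with at least 24 assays the medians were 17.7 in WT (14 cells) and 14.5 in EKO (21 cells), a difference of -3.16 cycles (set A -4.46, set B -1.64). At that filter 83.3% of both genotypes together detected Ly6a, and the medians leave out the other cells. The part of yield in the Ct difference was not tested.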

How the data were processed

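Lineage-negative, GFP-positive single cells were measured with 96 TaqMan assays on 2 sets, per the labels. The deposited table, described as not normalized, holds a value per assay and cell without naming its unit. The authors' values were taken for raw Ct, as 12852 of the 18432 equal 40 and the lowest is 4.49. The sources used here do not give the software, the threshold or the preamplification. Sets were read from the letter in each title. Of the 96 gene names, 93 matched a RefSeq table (GRCm38.p6), and the other 3 keep the spelling of the file.

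A Ct below 40 counted as detected, and cells with at least 10 assays were kept. Shares have exact Clopper-Pearson 95% intervals, which at these numbers of cells set the precision. A share of 0 was given the limit of 3 counts. Levels are medians over detecting cells without a reference gene. Cells are not replicates, so no p-value was computed. Size rules were 10 points (genotype), 30 points (groups of cells) and 1 cycle over both sets together, with the same sign in each set. Named beside the members were the 3 assays with the most similar detection and up to 4 examples a list; Mki67, Birc5, Pcna, Ccnd1, Itgb3, Notch1, Fgfr1, Angpt1 and single cells were named after their values were seen. Alternatives were a filter at 24 assays, none at all, Ct limits of 35 and 30, each set, terciles of yield, reference genes, the cell's own median, the mean, and Col1a1 limits of 14 and 18. Members, lists and rules were chosen with earlier results of these data known. Functions were tested on simulated data. Python 3.11.15, NumPy 2.4.6, pandas 2.3.3, SciPy 1.17.1 and matplotlib 3.10.9 were used.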

Additional observations from a re-analysis of the deposited data

Results flagged for a closer look

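Within each set Thy1 had genotype differences of opposite sign in collagen-high and in Ptprc-detecting cells. In collagen-high cells its median Ct was later in EKO, by 0.26 cycles on set A and 0.72 on set B. Over both sets together it differed there by 0.0005 cycles only. In Ptprc-detecting cells it was earlier, with EKO minus WT values of -0.98 cycles (set A), -0.52 (set B) and -0.23 (both sets together). Each value is smaller than the SD over EKO cells, 2.21 and 2.59 cycles, and the difference between the groups of cells was not tested.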

How the results depend on the processing

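Of 115 alternative values for 19 results, 9 were counted as moved beyond the interval of the reported value (for Ct, beyond 1 SD over cells). Another 1 was counted as reversed and the others as neither. A change of sign alone was not counted as a reversal, and several values counted as moved or as neither also changed sign. Among the latter were Ly6a by Cdh5, from 6.32 to -19.6 points in set B, and Thy1 by genotype, from 14.3 to -0.16 points in set A. With at least 24 assays per cell the Cd34 share difference, EKO minus WT, reversed from 14.5 to -2.43 points. At that filter the Ly6a difference moved to -10.8 and that of Thy1 to -11.6 points, the Thy1 difference between collagen-high and Ptprc-detecting cells to 33.5, and between cells with and without Cdh5 to -21.2. Ly6a without a filter on cells stood at -14.6 points. Against every Ptprc-detecting cell the Cd34 and Thy1 differences of collagen-high cells were 52.9 and 40.96 points. In set B alone the Cdh5 differences were 57.5 points for Thy1 and -2.50 for Prom1, from 3 Cdh5-detecting cells. Fewer and deeper cells enter at 24 assays; the cause of the changes was not tested. Cells weighted to the same terciles of yield gave Cd34 5.88, Thy1 5.01 and Mcam 9.35 points. The Cd34 Ct difference ranged from 1.54 to 3.05 cycles over its alternatives and was later in EKO in each. The Ly6a Ct difference, -4.22 cycles, was -1.27 against reference genes and -0.15 in collagen-high cells. The number of cells with Cd34, Ly6a and Thy1 stayed at 44 at a Ct limit of 30. No paired analysis was possible because cell numbers only name positions and no animal is given. Mcam and Prom1 had fewer than 10 detecting cells in WT, so no level difference was taken.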
